A study of Mus musculus with 12 samples.

Results

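Lenvatinib was given to 6 of the 12 Hep3B tumors of this series, and the question here is which transcripts differed between those 6 tumors and the 6 not given it, over both settings in which it was used. All 12 tumors of the series enter the comparison, and they were assigned from the treatment labels, not from any measured value. Hep3B is a human hepatocellular carcinoma line. Its cells were implanted under the skin of female BALB/c nu/nu mice of about 8 weeks, and dosing by mouth began when the tumors averaged about 500 mm3. Each group held 3 tumors, 1 from each of 3 mice: vehicle, lenvatinib at 10 mg/kg, H3B-6527 at 300 mg/kg, and the combination of both agents at these doses. Tumors were taken 8 hours after the last of 4 daily doses. The tumor cells come from 1 line, and the table analysed here lists human gene symbols, whereas the blood vessels and stroma of such tumors are formed by the mouse.

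Lenvatinib blocks several receptor tyrosine kinases, among them the VEGF receptors of blood vessels, the FGF receptors, PDGFRA, KIT and RET. H3B-6527 is a selective inhibitor of FGFR4, the receptor through which the hormone FGF19 acts on liver cells. VEGFA, released by tumor cells, binds its receptors on endothelium and drives vessel growth. When oxygen falls, the prolyl hydroxylases of the EGLN family no longer mark the HIF alpha subunits for breakdown by VHL. The HIF factors then switch on VEGFA itself, glycolysis, mitochondrial regulators and their own feedback inhibitors.

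The effect was estimated as the lenvatinib coefficient of an additive model in which H3B-6527, yes or no, is the other term (edgeR quasi-likelihood F-test, 2-sided, Benjamini-Hochberg adjustment over all genes tested). A positive log2 fold change is a higher level with lenvatinib, and its error is an approximate SE. That SE was derived from the test, as the absolute log2 fold change divided by the square root of F. Levels are CPM, the usual depth-scaled read count, with library totals scaled by TMM, and they are compared here only between tumors, never between genes, since gene length was not used. Library totals ran from 23.8 to 40.9 M counts, and the smallest belonged to H3B-6527 replicate 3. The biological coefficient of variation was 21.5% among the H3B-6527 tumors and between 8.16% and 11.2% in the other 3 groups. The defining liver markers ALB, AFP, TTR, APOA1, SERPINA1 and HNF4A were all above 1 CPM on average. Endothelial markers under human symbols were sparse, with 21 of 25 under 1 CPM. The VEGF receptor KDR had 5 counts over all 12 tumors, and PLVAP, ESM1 and ERG had none. Under 1 CPM were also 4 of 12 pericyte and smooth muscle, 11 of 15 fibroblast and 10 of 15 macrophage markers. So were 7 of 10 skeletal muscle and 8 of 8 erythroid markers. Some host-cell markers were high on average, such as TTN (377 CPM), FBLN1 (227 CPM) and CD68 (127 CPM). The summed endothelial markers ranged from 105 to 112 CPM with vehicle, from 93.7 to 133 with lenvatinib, from 79.3 to 102 with H3B-6527 and from 92.6 to 102 with the combination. Their largest part came from PROX1 (91.8 CPM on average), which liver cells also express. In bulk tumors, fewer cells of a type and less RNA per cell cannot be told apart.

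Over both backgrounds, 31 of 15836 genes tested passed the threshold of adjusted p under 0.05, which is 0.196%. Of these, 29 were higher with lenvatinib (0.183% of the genes tested) and 2 were lower (0.0126%). The largest change was 2.92 on the log2 scale, the smallest 0.31, and 9 of the 31 differed by at least 2-fold. In all 31, the 3 lenvatinib tumors lay on 1 side of the 3 vehicle tumors and the 3 combination tumors on the same side of the 3 H3B-6527 tumors. Over all genes tested, 1.55% were separated upward in this way in both backgrounds and 1.34% downward. The calls come from a test on these same tumors that favours a shared direction, so their separation is no independent support. Without the adjustment, 1212 genes were higher (7.65%) and 1030 lower (6.5%) at p under 0.05. The count of calls depended on single tumors. No gene passed without vehicle replicate 1, lenvatinib replicate 2, combination replicate 1 or combination replicate 2 (with 1885, 2064, 2014 and 1832 genes at unadjusted p under 0.05). There was 1 call without vehicle replicate 3, 2 without H3B-6527 replicate 3, 3 without lenvatinib replicate 3, 9 without combination replicate 3 and 13 without lenvatinib replicate 1. Without vehicle replicate 2 there were 53 higher and 4 lower, and without H3B-6527 replicate 1 there were 251 higher and 163 lower. DESeq2 called 283 higher and 160 lower, and limma voom 257 and 193, and these sets held 30 and 31 of the 31 genes called by edgeR.

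**Figure D1:**
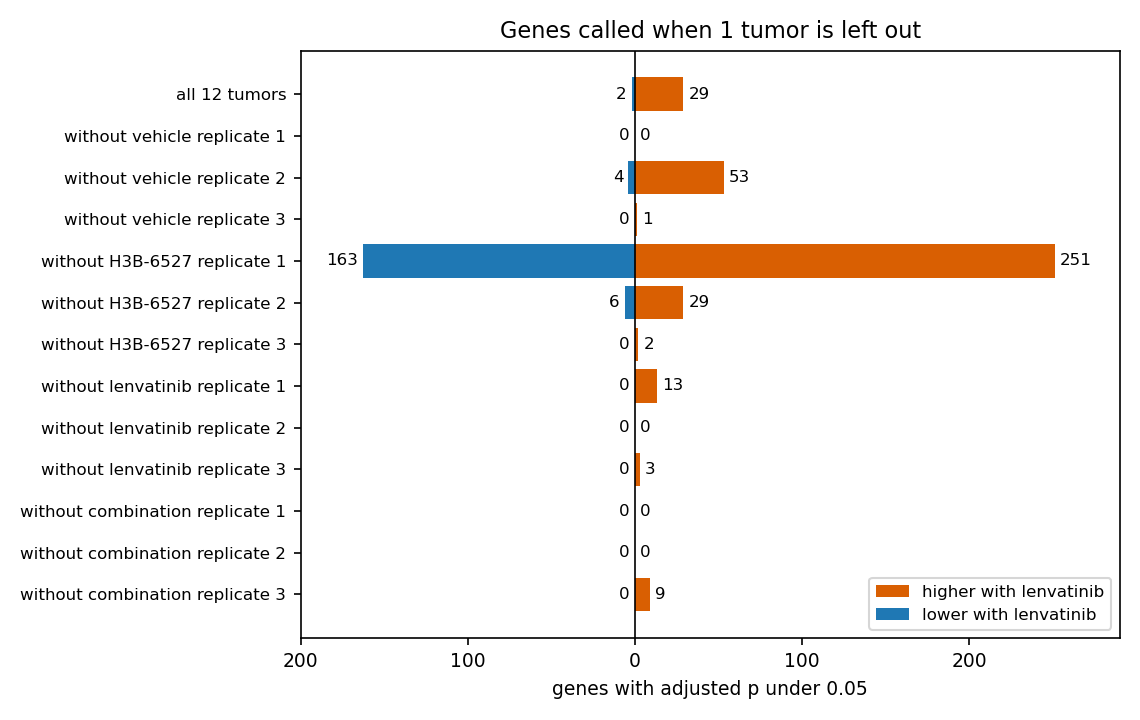
Number of genes with adjusted p under 0.05 in the lenvatinib main effect (horizontal axis, higher to the right and lower to the left of 0) with all 12 tumors and with each tumor left out in turn (vertical axis). The bars run from 0 calls to 251 higher and 163 lower without H3B-6527 replicate 1.

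The smallest p belonged to VEGFA, the main angiogenic ligand. VEGFA stood at 87.6, 107 and 84.2 CPM in the vehicle tumors and at 128, 160 and 182 CPM with lenvatinib. It was at 72.5, 80.3 and 79.2 CPM with H3B-6527 and at 150, 120 and 117 CPM with the combination. Both sets of lenvatinib tumors therefore lay above their own controls without overlap. The main effect was 0.75 ± 0.09, a 1.68-fold rise (adjusted p = 0.0206), and it was 0.76 without H3B-6527 and 0.73 with it. Over 18 alternatives the value ran from 0.69 to 0.80 and the adjusted p from 7.90e-10 to 0.0711. The call was lost without vehicle replicate 1, vehicle replicate 3, lenvatinib replicate 2, combination replicate 1 or combination replicate 2 (edgeR adjusted p = 0.0637, 0.0547, 0.0709, 0.0711 and 0.0554).

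VEGFA was 1 of 6 called genes that belong to 8 lists of hypoxia-responsive genes and their regulators. Of 134 genes listed, 116 passed the filter on low counts. Of those 116, 6 rose (5.17%, against 0.183% of all genes tested) and none fell. At unadjusted p under 0.05, 48 were higher and 4 lower, against 7.65% and 6.5% of all genes tested. The lists were chosen with earlier results of these data known, so these shares are a description and not a test. The median log2 fold change of the 116 was 0.22, against -0.0039 over all genes tested. The median was 0.22 in the background without H3B-6527 and 0.19 in the background with it. DESeq2 called 35 of the 116 higher and none lower, where it called 1.79% of all genes higher and 1.01% lower. Limma voom called 30 higher and 1 lower, where it called 1.62% of all genes higher and 1.22% lower. Leaving out 1 tumor at a time gave between 0 and 20 hypoxia genes called higher, with medians from 0.17 to 0.23.

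**Figure D2:**
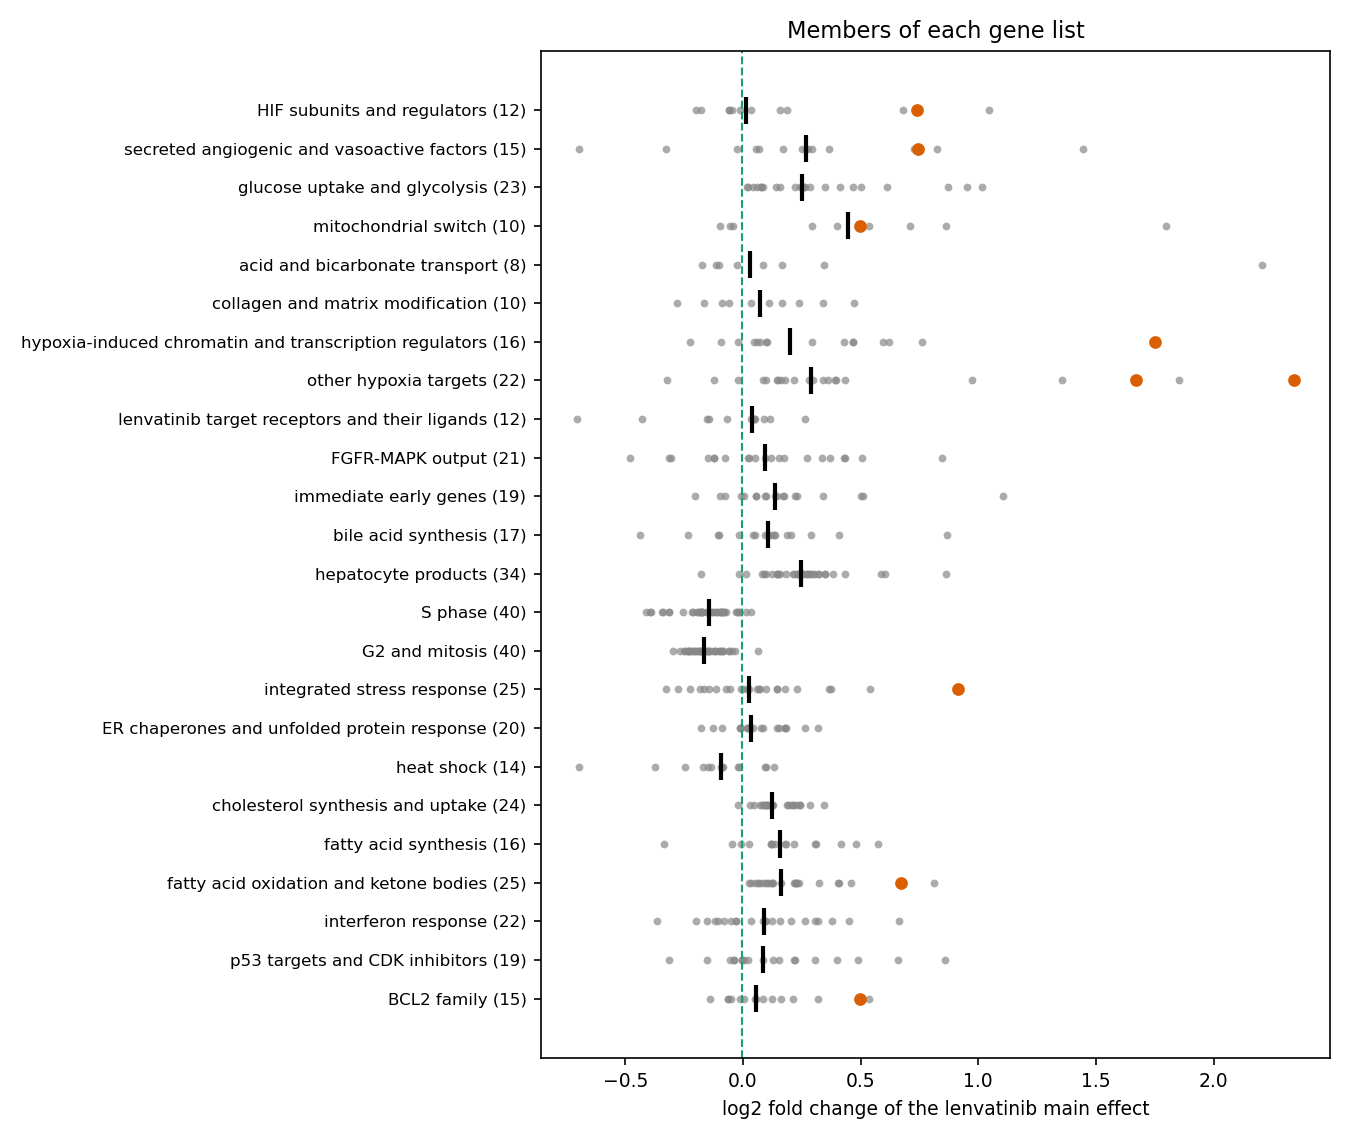
Log2 fold change of the lenvatinib main effect (horizontal axis) for the tested members of each gene list (vertical axis, number tested in brackets). Orange points have adjusted p under 0.05, grey points do not, black bars are list medians and the dashed line is the median of all genes tested. The hypoxia lists reach the highest values, up to 2.34 for IGFBP1, and the S phase and mitosis lists lie to the left of 0.

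Among the HIF subunits and regulators, CITED2, a HIF-induced protein that competes with HIF for the coactivator p300, was the only one of 12 tested that edgeR called. DESeq2 called 2 of the 12 higher and voom 1. CITED2 was at 12.1, 17.7 and 13.1 CPM with vehicle and at 29.8, 24.3 and 30.0 CPM with lenvatinib. With H3B-6527 it was at 32.3, 33.5 and 27.4 CPM, and with the combination at 46.9, 45.5 and 41.2 CPM. The groups did not overlap in either background, and the main effect was 0.74 ± 0.11 (edgeR adjusted p = 0.0326). The effect was 0.97 without H3B-6527 and 0.52 with it, a difference at unadjusted p = 0.0381 that did not pass over all genes. EGLN3, the prolyl hydroxylase most induced by hypoxia, had a main effect of 1.05 ± 0.30 (adjusted p = 0.158), and EGLN1 0.19 ± 0.06 (adjusted p = 0.198). HIF1A, whose protein and not its transcript is what oxygen controls, had -0.18 ± 0.07 (adjusted p = 0.280). The median of the 12 was 0.01.

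Of 15 secreted angiogenic and vasoactive factors tested, edgeR called VEGFA, and the median was 0.27. DESeq2 called 4 of the 15 higher and 0 lower, and voom 3 higher and 1 lower. The vasodilator peptide ADM had a main effect of 0.82 ± 0.20 (adjusted p = 0.110) and EFNA1, an ephrin ligand, 0.73 ± 0.19 (0.140). VEGFB, a second ligand of the family, had 0.25 ± 0.07 (0.140), with the lenvatinib tumors above their controls in both backgrounds. ANGPTL4, a lipase inhibitor, had 0.29 ± 0.17 (0.445), with 0.68 in the background without H3B-6527 and -0.04 with it.

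Other hypoxia targets held 2 edgeR calls among 22 tested, both higher, with a median of 0.29. DESeq2 and voom each called 7 of the 22 higher. IGFBP1, a binding protein for insulin-like growth factors made by liver cells, was at 5.47, 15.2 and 4.28 CPM with vehicle and at 20.5, 40.9 and 38.2 CPM with lenvatinib. With H3B-6527 it was at 0.283, 0.678 and 1.51 CPM, and with the combination at 5.63, 6.29 and 6.48 CPM. Each set of lenvatinib tumors lay above its controls although the controls themselves stood apart. The main effect was 2.34 ± 0.38, a 5.07-fold rise (edgeR adjusted p = 0.0473). EPO, the erythropoietin gene and a classical HIF target, rose by 1.67 ± 0.30 (adjusted p = 0.0473) on 124 counts in the 6 tumors without lenvatinib and 382 in the 6 with it. Its values were 0.251, 0.968 and 0.236 CPM with vehicle, 1.42, 1.70 and 1.49 with lenvatinib, 0.849, 0.434 and 0.796 with H3B-6527, and 2.85, 2.38 and 1.52 with the combination. The stress gene DDIT4, an inhibitor of mTOR complex 1, had 0.97 ± 0.20 (adjusted p = 0.0809) and ANKZF1 0.39 ± 0.08 (0.0680), both separated in both backgrounds.

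NDRG1, a stress gene strongly induced by hypoxia, differed more between the 2 control groups than with lenvatinib in the second background. It was at 20.8, 66.4 and 16.2 CPM with vehicle and at 130, 131 and 189 CPM with lenvatinib. With H3B-6527 it was at 258, 191 and 167 CPM and with the combination at 344, 338 and 258 CPM. The lenvatinib tumors lay above the vehicle tumors, whereas the lowest combination tumor and the highest H3B-6527 tumor were both at 258 CPM. The main effect of NDRG1 was 1.35 ± 0.39 (edgeR adjusted p = 0.166), with 2.12 ± 0.45 in the first background and 0.60 ± 0.43 in the second (unadjusted p of the difference 0.0307, adjusted 0.905).

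**Figure D3:**
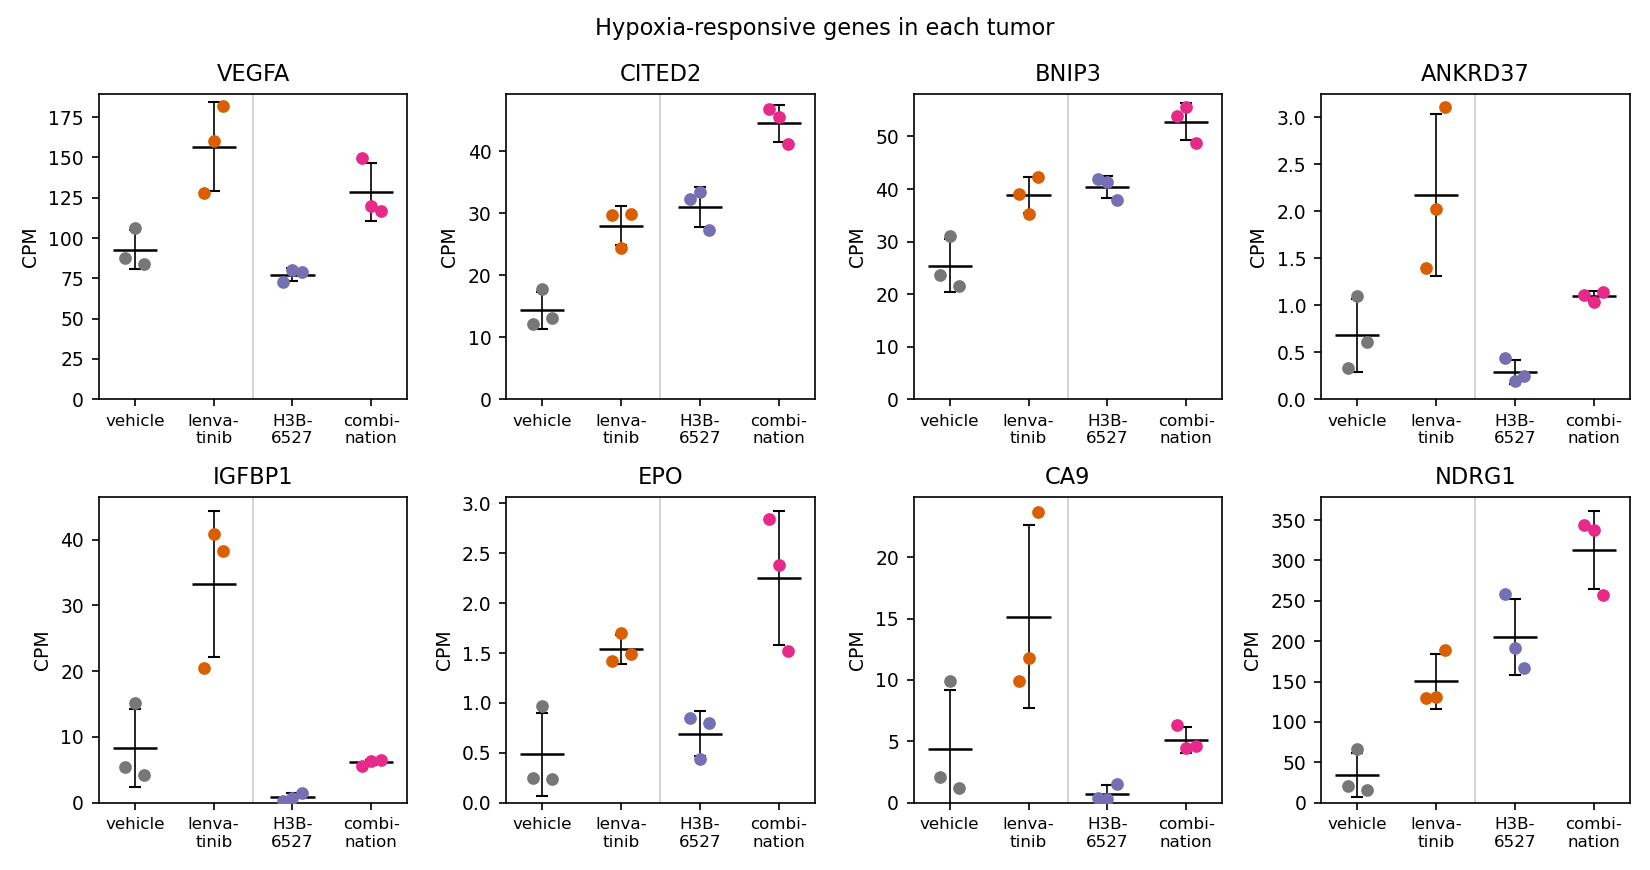
Level of 8 hypoxia-responsive genes in CPM (vertical axes, from 0) in each of the 12 tumors, by group (horizontal axes, the 2 backgrounds parted by a grey line). Points are tumors, bars are means and whiskers SDs of 3 tumors. VEGFA was between 84.2 and 107 CPM with vehicle and between 128 and 182 CPM with lenvatinib.

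Of 10 genes of the mitochondrial switch tested, edgeR called BNIP3, DESeq2 called 5 higher and voom 3, and the median was 0.45. BNIP3 encodes a mitochondrial protein that directs mitophagy. It was at 23.7, 31.1 and 21.5 CPM with vehicle and at 39.0, 35.3 and 42.2 CPM with lenvatinib. In the other background it was at 41.9, 41.3 and 37.9 CPM without lenvatinib and at 53.9, 55.7 and 48.8 CPM with it. The main effect was 0.50 ± 0.09 (edgeR adjusted p = 0.0473). MXI1, a MYC antagonist, had 0.71 ± 0.14 (adjusted p = 0.0661), NDUFA4L2, which lowers complex I activity, 1.80 ± 0.39 (0.0868) and PDK1, the kinase that inhibits pyruvate dehydrogenase, 0.86 ± 0.20 (0.103).

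ANKRD37, a small ankyrin repeat protein and HIF target, was the only edgeR call among 16 hypoxia-induced chromatin and transcription regulators (median 0.20), of which DESeq2 called 5 and voom 6 higher. ANKRD37 was at 0.335, 1.10 and 0.604 CPM with vehicle, 1.40, 2.02 and 3.10 with lenvatinib, 0.437, 0.190 and 0.251 with H3B-6527, and 1.11, 1.04 and 1.14 with the combination. The main effect was 1.75 ± 0.29 (edgeR adjusted p = 0.0439), on 108 counts in the tumors without lenvatinib and 345 in those with it. The histone demethylase KDM4B had 0.30 ± 0.06 (adjusted p = 0.0685) and the clock-linked repressor BHLHE40 0.76 ± 0.15 (0.0706).

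No gene of glucose uptake and glycolysis passed with edgeR, yet all 23 tested had a value above 0, against 48.9% of all genes tested. The median was 0.25, and 12 of the 23 had an unadjusted p under 0.05. By background, 20 of the 23 were above 0 without H3B-6527 and 18 with it, and 15 in both. DESeq2 called 10 and voom 7 of them higher. PFKFB4, a regulator of phosphofructokinase, had a main effect of 1.02 ± 0.22 (edgeR adjusted p = 0.0859) and LDHA, the lactate dehydrogenase subunit, 0.41 ± 0.09 (0.0868). GAPDH had 0.28 ± 0.07 (0.0945), and LDHA and GAPDH have processed pseudogenes with which reads can be shared. HK2 and SLC2A1, the hexokinase and glucose transporter of proliferating cells, had main effects of 0.26 ± 0.19 (0.572) and 0.35 ± 0.26 (0.576). HK2 had -0.16 without H3B-6527 and 0.71 with it.

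Acid and bicarbonate transport had no call among 8 tested and collagen and matrix modification none among 10, with edgeR (2 and 3 higher at unadjusted p under 0.05, DESeq2 1 and 1). CA9, the hypoxia-induced carbonic anhydrase, was at 2.07, 9.89 and 1.23 CPM with vehicle and at 9.94, 11.8 and 23.7 CPM with lenvatinib. It was at 0.386, 0.271 and 1.55 CPM with H3B-6527 and at 6.29, 4.42 and 4.60 CPM with the combination. The groups of CA9 did not overlap in either background, though vehicle replicate 2 nearly reached the lowest lenvatinib tumor, and the main effect was 2.21 ± 0.53 (edgeR adjusted p = 0.111). Without vehicle replicate 2, 18 of 116 hypoxia genes passed (15.5%, against 0.33% of all genes tested called higher). Without H3B-6527 replicate 1, 20 of 117 passed as higher (17.1%, against 1.57% of all genes). Each other tumor left out gave from 0 to 5 hypoxia genes higher. The collagen hydroxylases PLOD1, PLOD2 and P4HA1 had 0.16 ± 0.05, 0.34 ± 0.11 and 0.47 ± 0.19 (adjusted p = 0.177, 0.184 and 0.273).

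Hypoxia genes also differed between tumors of 1 group. Vehicle replicate 2 had the highest level of the 3 vehicle tumors for 73 of the 116 tested hypoxia genes (62.9%), against 34.7% of all genes. Lenvatinib replicate 3 had the highest level of its group for 71 of them (61.2%), against 34.1% of all genes. Among H3B-6527 tumors the largest share was 45.7%, in replicate 3, against 35.1% of all genes. Among combination tumors it was 39.7%, in replicate 1, close to the 36.5% of all genes.

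Of the 25 called genes outside the hypoxia lists, 23 rose and 2 fell. The largest rises with mean log2 CPM of 1 or more, besides IGFBP1, were LGI4, a secreted leucine-rich protein known from peripheral nerve, and DEPTOR, an inhibitory partner of mTOR. LGI4 was at 0.391, 2.27 and 0.499 CPM with vehicle, 3.70, 4.81 and 6.95 with lenvatinib, 1.11, 1.03 and 1.01 with H3B-6527, and 7.30, 6.22 and 5.31 with the combination. It rose by 2.42 ± 0.34 (edgeR adjusted p = 0.0315), on 227 counts without lenvatinib and 1176 with it. DEPTOR rose by 1.01 ± 0.16 (adjusted p = 0.0326), from 3.92 to 8.96 CPM in the first background and from 4.61 to 8.29 CPM in the second.

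SLC6A8, the creatine transporter, rose by 1.00 ± 0.16 (edgeR adjusted p = 0.0439), with every lenvatinib tumor at 18.8 CPM or more and every other tumor at 18.2 CPM or less. ATF5, a transcription factor of the stress response, rose by 0.92 ± 0.16 (adjusted p = 0.0473), from 13.5 to 24.4 CPM and from 34.2 to 67.4 CPM. It was the only edgeR call among 25 integrated stress response genes (median 0.03), of which DESeq2 called 2 and voom 2 higher. In that list the transcription regulator NUPR1 had 0.54 ± 0.13 (0.0947) and the amino acid transporters SLC7A5 and SLC7A1 -0.28 ± 0.10 (0.216) and -0.33 ± 0.14 (0.334). The stress markers TRIB3 and ASNS had main effects of 0.07 ± 0.18 (0.894) and -0.05 ± 0.10 (0.843).

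Further rises were ALOX12B, a lipoxygenase (0.85 ± 0.13), RDH16, a retinol dehydrogenase of liver (0.82 ± 0.13), FAM13A (0.81 ± 0.14), the kinase PIM1 (0.72 ± 0.13), C9orf172 (0.74 ± 0.10), TMEM141 (0.65 ± 0.11) and NSMF (0.53 ± 0.09), with edgeR adjusted p between 0.0276 and 0.0473. BDH1, which interconverts the ketone bodies, rose by 0.67 ± 0.12 (adjusted p = 0.0473), from 15.5 to 25.7 CPM and from 22.0 to 33.7 CPM. PNCK, a calmodulin-dependent kinase, had the largest value (2.92 ± 0.41, adjusted p = 0.0276) on 21 counts without lenvatinib and 162 with it, and H3B-6527 replicate 1 had 0 counts. The other rises were BCL6, a transcriptional repressor (0.39), the ribosomal protein gene RPL3 (0.31), TRIM46 (0.84), the chaperone cofactor DNAJC4 (0.46), the transcription factors ZIC2 (0.38), SIX5 (0.31) and ZHX2 (0.36), PPP1R3G, a glycogen-targeting phosphatase subunit (1.17), the cationic amino acid transporter SLC7A2 (0.39), and AC129492.1 (1.19). RPL3 has processed pseudogenes, so its count is less certain. The last calls inside the threshold were SIX5 and ZHX2 (adjusted p = 0.0494), and the first outside were LRRC75B and PSME4 (0.0510).

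The 2 falls were POP1 and SNHG4. POP1, a protein of the RNA-processing enzymes RNase P and RNase MRP, fell by 0.41 ± 0.07 (edgeR adjusted p = 0.0473). It was at 27.3, 23.3 and 25.9 CPM with vehicle, 18.1, 21.2 and 18 with lenvatinib, 16.1, 13.1 and 14.7 with H3B-6527, and 11.9, 10.6 and 10.5 with the combination. SNHG4, a noncoding host gene of small nucleolar RNAs, fell by 1.04 ± 0.19 (adjusted p = 0.0473), from 3.49 to 1.61 CPM and from 1.08 to 0.56 CPM.

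The effects in the 2 backgrounds come from tumors that are not shared, although the scaling and the pooled spread are common to both. They are not repeats of 1 condition, since in the second background lenvatinib was added to H3B-6527. With 4 group means fitted by edgeR, lenvatinib against vehicle gave 0 calls (0% of genes, 1698 or 10.7% at unadjusted p under 0.05, DESeq2 245, voom 489). The combination against H3B-6527 gave 2 calls (0.0126% of genes, 9.42% at unadjusted p under 0.05). They were AMDHD1, an enzyme of histidine breakdown (0.95 ± 0.12, adjusted p = 0.0127), and JAML, a junctional adhesion molecule (0.88 ± 0.10, 0.0107), both named because they were the only edgeR calls (DESeq2 98, voom 11) and after their values were seen. In the first background these genes had 0.24 ± 0.11 and 0.23 ± 0.10. Of the 98 genes that DESeq2 called between combination and H3B-6527, 82 (83.7%) had the same sign between lenvatinib and vehicle. Over the 12047 genes with mean log2 CPM of 1 or more, 61.5% had the same sign in both backgrounds, and Pearson's r across genes was 0.32, as a description, since genes are not independent replicates.

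**Figure D4:**
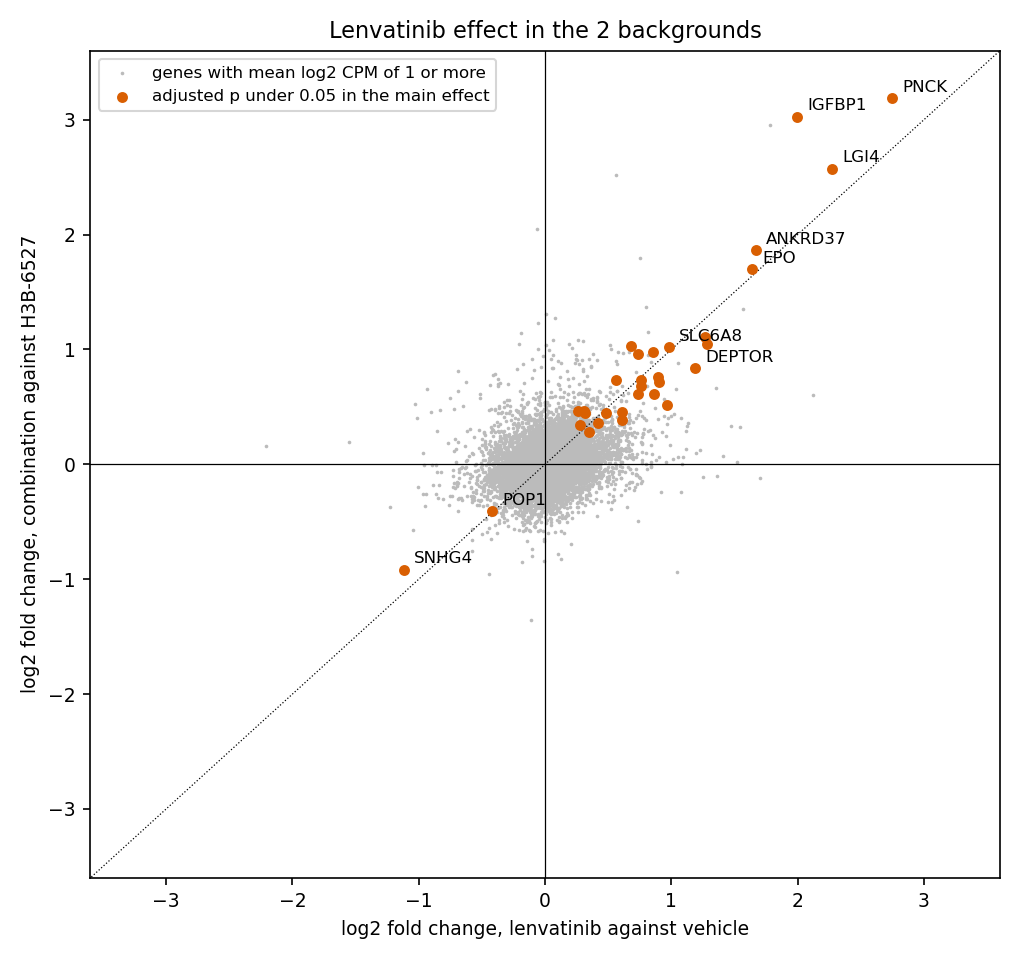
Log2 fold change of lenvatinib against vehicle (horizontal axis) and of combination against H3B-6527 (vertical axis) for genes with mean log2 CPM of 1 or more (grey) and for the 31 genes called in the main effect (orange). The dotted line marks equal effects, and the called genes lie near it, from SNHG4 at lower left to PNCK at upper right. The additive test that picked them, on these same tumors, favours similar effects in both backgrounds.

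The test of the difference between backgrounds called 0 genes with edgeR (0% of genes tested, 854 at unadjusted p under 0.05), 0 with voom and 18 with DESeq2. Genes of FGF receptor and MAP kinase output nevertheless had values on opposite sides of 0. Of 21 tested, 18 were below 0 for lenvatinib against vehicle and 19 above 0 for combination against H3B-6527, with medians of -0.29 and 0.64. The difference was above 0 in all 21, against 46.3% of all genes tested, and 11 had an unadjusted p under 0.05, against 5.39% of all genes. All 21 differences rest on the same 12 tumors, and members of 1 list can vary together. These counts are therefore a description and not independent results. The growth regulator MYC was at 48.3, 46.2 and 47.1 CPM with vehicle, 36.5, 53.2 and 46.5 with lenvatinib, 5.27, 7.13 and 8.38 with H3B-6527, and 11.7, 14.3 and 15.3 with the combination. Its lenvatinib effect was -0.06 ± 0.16 in the first background and 1.01 ± 0.17 in the second (difference 1.06 ± 0.23, edgeR adjusted p = 0.686, DESeq2 adjusted p = 0.0248).

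DUSP6, the ERK-induced phosphatase that dampens ERK, had 0.06 ± 0.33 and 1.08 ± 0.38 in the 2 backgrounds. Its tumors overlapped in both, at 2.70, 5.07 and 7.62 CPM with H3B-6527 against 6.04, 9.71 and 15.8 CPM with the combination. SPRY4, a feedback inhibitor of the pathway, had -0.80 ± 0.41 and 1.18 ± 0.71 on low levels, and a main effect of -0.31 ± 0.42 (edgeR adjusted p = 0.781). In the main effect this list had 0 calls with edgeR, 0 with DESeq2 and 0 with voom, a median of 0.09, and 1 gene higher at unadjusted p under 0.05. FOSL1 had -0.48 ± 0.29 (adjusted p = 0.471) and ETV1 0.27 ± 0.16 (0.459).

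**Figure D5:**
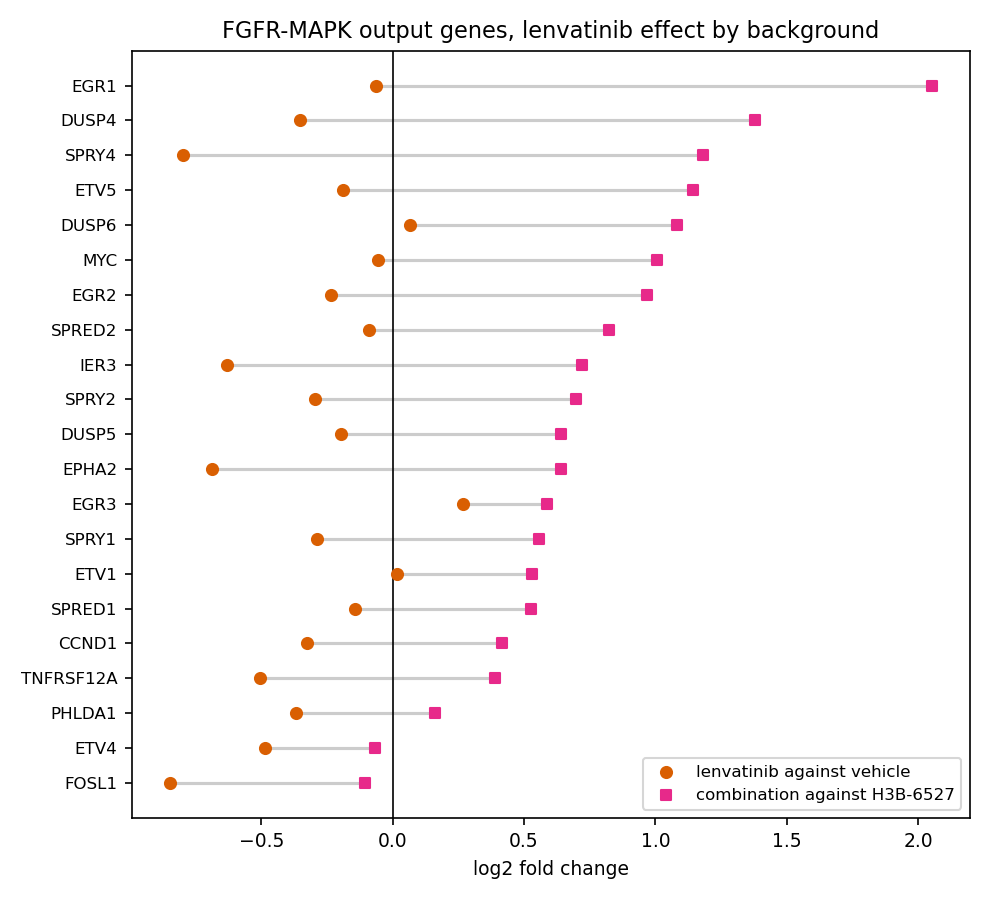
Lenvatinib effect as log2 fold change (horizontal axis) for each of the 21 tested FGFR-MAPK output genes (vertical axis), against vehicle (circles) and on top of H3B-6527 (squares). In all 21 the square lies to the right of the circle.

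Among named genes with mean log2 CPM of 1 or more, uncharacterised loci left out, the 8 with the smallest p for the difference were taken. Each had an edgeR adjusted p of 0.610. LRP11, a membrane protein, was at 16.9, 17.8 and 17.3 CPM with vehicle and 28.1, 23.2 and 27.1 with lenvatinib, against 72.1, 73.4 and 71.6 with H3B-6527 and 68.4, 71.2 and 68.6 with the combination. The acetylcholine receptor subunit gene CHRNA4 had 1.52 in the first background and 0.02 in the second, and ZBED8 0.53 and -0.33. The clock factors NPAS2 and HLF had -0.60 and 0.31, and -1.01 and 0.40. NAT8, an acetyltransferase, had -0.06 and 1.23, the RNA-binding protein RBPMS -0.39 and 0.28, and the caspase CASP4 -0.24 and 0.36.

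The list of receptors that lenvatinib inhibits and their ligands gave no call with edgeR. VEGFA, which was called, and VEGFB are also such ligands but were counted among the secreted factors above. Of 12 receptors and ligands tested, 0 passed with edgeR, with 1 at unadjusted p under 0.05, 0 calls with DESeq2 and 1 with voom. FGFR1 had a main effect of -0.71 ± 0.23 (edgeR adjusted p = 0.194), NRP2, a coreceptor of VEGF, -0.43 ± 0.22 (0.407), FGFR4 0.03 ± 0.07 (0.861), its coreceptor KLB 0.05 ± 0.16 (0.925) and its ligand FGF19 -0.15 ± 0.26 (0.835). Without and with H3B-6527, KLB had 0.35 and -0.25, FGF19 -0.33 and 0.05 and FGFR4 -0.01 and 0.08. FGFR1 had -0.95 and -0.36, and NRP2 -0.57 and -0.17. KDR and FLT1 were too low to test, with 5 and 58.8 counts in all.

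Liver genes had mostly small values above 0. Of 34 genes of hepatocyte products, 32 were above 0 (94.1%, against 48.9% of all genes tested), with a median of 0.24. At unadjusted p under 0.05, 12 were higher and 0 lower, and edgeR called none, DESeq2 2 and voom 3. For this list and those below, the shares over all genes were 7.65% higher and 6.5% lower at unadjusted p under 0.05. DESeq2 called 1.79% of all genes higher and 1.01% lower, and voom 1.62% and 1.22%. The asialoglycoprotein receptor ASGR1 had 0.28 ± 0.07 (adjusted p = 0.103), the plasma protein ITIH1 0.60 ± 0.16 (0.144), the nuclear receptor HNF4A 0.18 ± 0.08 (0.293) and albumin (ALB) 0.08 ± 0.12 (0.800). The median of the 34 was 0.29 without H3B-6527 and 0.13 with it. In the same order, ASGR1 had 0.31 and 0.26 and ITIH1 0.93 and 0.28. HNF4A had 0.35 and 0.02, and ALB 0.20 and -0.04. Bile acid synthesis had 0 calls among 17 with edgeR, DESeq2 and voom, and 4 genes at unadjusted p under 0.05. CYP7A1, its rate-limiting enzyme, had -0.44 ± 0.35 (0.611) and CYP8B1 0.87 ± 0.38 (0.329). Each tumor without H3B-6527 had only 2 to 5 counts of CYP7A1, so its value rests almost entirely on the other background. There CYP7A1 was at 15.4, 12.7 and 4.65 CPM with H3B-6527 and at 9.68, 9.88 and 4.29 CPM with the combination (-0.48 ± 0.38). CYP8B1 was also low with vehicle, at 0.279, 0.408 and 0.0263 CPM.

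In fatty acid oxidation and ketone bodies, edgeR called BDH1 among 25 tested, DESeq2 called 3 higher and voom 2. All 25 main-effect values were above 0, with a median of 0.16. By background, the median was 0.28 without H3B-6527 and 0.04 with it. All 25 were above 0 without H3B-6527, whereas with it 16 were above and 9 below. The coactivator PPARGC1A had 0.46 ± 0.12 (edgeR adjusted p = 0.111). Fatty acid synthesis had 0 calls among 16 (5 higher at unadjusted p under 0.05, 2 with DESeq2, 2 with voom). Its regulator SREBF1 had 0.57 ± 0.13 (0.0975) and the desaturase SCD 0.48 ± 0.12 (0.111), both separated in both backgrounds. Cholesterol synthesis and uptake had 0 calls among 24 (8 higher at unadjusted p under 0.05, 1 with DESeq2, 0 with voom), 23 values above 0 and a median of 0.12.

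Cell cycle genes had small values below 0. Of 40 S phase genes 38 were below 0 and of 40 genes of G2 and mitosis 39, with medians of -0.14 and -0.16, and none passed with edgeR, DESeq2 or voom. In each list 1 gene was lower at unadjusted p under 0.05, RFC3 of the clamp loader (-0.35 ± 0.11, edgeR adjusted p = 0.189) and the checkpoint kinase BUB1B (-0.30 ± 0.12, 0.274). The proliferation marker MKI67 had -0.18 ± 0.18 (0.701). The medians were -0.08 and -0.09 without H3B-6527 and -0.23 and -0.27 with it. Members of each list vary together between tumors, so their shared sign is a description and not a count of independent results.

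Heat shock genes had 0 calls among 14 with edgeR (3 lower at unadjusted p under 0.05, 1 lower with DESeq2, 2 with voom) and a median of -0.09. HSPH1, a nucleotide exchange factor for HSP70, was at 63.2, 64.3 and 83.1 CPM with vehicle, 48.2, 46.2 and 60.1 with lenvatinib, 32.3, 65.4 and 45.5 with H3B-6527, and 27.0, 21.6 and 25.2 with the combination. It lay lower with lenvatinib without overlap in both backgrounds, with a main effect of -0.70 ± 0.16 (edgeR adjusted p = 0.105). The constitutive HSP70 gene HSPA8 had -0.37 ± 0.12 (0.177). Immediate early genes had 0 calls among 19 (3 higher at unadjusted p under 0.05, DESeq2 3, voom 2), with FOS at 1.11 ± 0.27 (0.111) and JUND at 0.34 ± 0.08 (0.101).

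The remaining tumor lists had no call with edgeR other than BNIP3, which the BCL2 family also holds. Medians were 0.04 for 20 genes of ER chaperones and the unfolded protein response, 0.09 for 22 interferon response genes, 0.08 for 19 p53 targets and CDK inhibitors and 0.06 for the 15 BCL2 family genes. At unadjusted p under 0.05 these lists had 1, 2, 5 and 2 genes higher and 0, 2, 0 and 0 lower. Over all genes tested, 7.65% were higher and 6.5% lower. DESeq2 called 1, 1, 0 and 2 members higher, against 1.79% of all genes. Of the cell type marker lists none had a call with edgeR. Medians were 0.09 for 7 endothelial genes, -0.02 for 9 of pericytes and smooth muscle, -0.21 for 6 of fibroblasts, 0.15 for 9 of macrophages, -0.01 for 6 of skeletal muscle, 0.13 for 3 of erythroid cells and 0.17 for 6 of hepatocytes. DESeq2 called 0 genes of these lists and voom 1, an endothelial one. The secreted endothelial factor EGFL7 had 0.73 ± 0.23 (adjusted p = 0.177), the only endothelial gene at unadjusted p under 0.05.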

How the data were processed

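RNA from 12 tumors, 3 per group, was sequenced on 4 lanes each. The authors deposited estimated counts per human gene symbol, unscaled. STAR, kallisto, GRCh37 and GRCm38 are named in the submitters' processing notes. Versions, annotation, filters and any removal of mouse reads are not given in the sources used here, and the share of mouse reads in genes alike in both species was not tested. Counts were rounded, filtered by filterByExpr on the 4 groups (15836 of 36292 symbols) and scaled by TMM. They were tested with edgeR 4.0.16 (robust quasi-likelihood, R 4.3.3) in an additive model with 9 residual degrees of freedom, and with 4 group means for each background and for their difference. The labels name separate mice but no batch. No 2 libraries held identical values.

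Alternatives were DESeq2 1.42.0, limma 3.58.1 voom with quality weights, other scalings, no filter, averaged group contrasts, 6-tumor fits and leaving out each tumor. Named genes were the 15 largest rises and falls called with mean log2 CPM of 1 or more and 1 sign in both backgrounds. Also named were 23 genes fixed by name, the 4 smallest p of each of 31 lists and the 8 smallest p of the difference. Those 8 were also held to mean log2 CPM of 1 or more. Uncharacterised loci and readthrough names were left out of the rises, the falls and those 8. All calls are listed as well. Members and lists were chosen with earlier results of these data known. List medians and counts carry no test. Counts were simulated with the real means, 1 spread per gene for all groups, planted changes equal in both backgrounds and no other lenvatinib effect. There the main-effect fit recovered 58.2% of 1.5-fold, 76.1% of 2-fold and 93.9% of 4-fold changes over 15679 genes. The planted changes numbered 67, 67 and 66 genes, and 159 genes passed. That count depends on how many were planted, so it cannot be set against the 31 calls in the data. The real groups differed in spread, so recovery in the data can be lower. The limit that a count of 0 allows, 3 counts, corresponds to between 0.0733 and 0.126 CPM over the libraries and covers counting error only.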

Additional observations from a re-analysis of the deposited data

How the results depend on the processing

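No paired analysis was possible because the labels give no replicate numbers or pairing between groups. Against 29 genes higher and 2 lower, library totals alone gave 9 and 1, DESeq2 283 and 160, voom 257 and 193, no filter on low counts 51 and 5, and averaged group contrasts 14 and 0. Leaving out 1 tumor gave 0 to 251 higher and 0 to 163 lower. DESeq2 size factors in edgeR gave 33 and 3. For lenvatinib against vehicle, with 0 calls, DESeq2 gave 245, voom 489, no filter 41 and a fit of those 6 tumors alone 189, and leaving out 1 tumor 0 to 45. For combination against H3B-6527, with 2 calls, these were 98, 11, 13 and 1, and 0 to 16. For the difference between backgrounds DESeq2 gave 18 calls and every other alternative run gave 0, including each tumor left out.

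All 31 called genes kept their sign in every alternative run, but not their call. Over these genes and all alternatives, the call was kept 239 times and lost 319 times. It was kept in 4 (SIX5) to 13 (VEGFA) of 18 alternatives. Among the other called hypoxia genes it was kept in 11 for CITED2, 8 for ANKRD37, 7 for IGFBP1 and 6 each for EPO and BNIP3. Runs with 1 tumor left out share most tumors with the main test, so a kept sign is weak support. Among the genes not called, 8 that the text names changed sign in at least 1 alternative. FGFR4 was at -8.48e-04 with library totals and -0.0065 with voom, and from -0.022 to 0.061 with 1 tumor left out. TRIB3 was at -0.11 with voom and from -0.025 to 0.23 with 1 tumor left out, and CASP4 at -0.035 with voom and from -0.0049 to 0.12. SPRY4, with -0.31 ± 0.42 in the main test, was at 0.19 with averaged group contrasts and from -0.54 to 0.044 with 1 tumor left out. Leaving out 1 tumor gave ASNS from -0.11 to 0.0072, RBPMS from -0.13 to 0.023, KLB from -0.020 to 0.22 and MKI67 from -0.27 to 0.034. The cause was not tested for any of these. Library totals moved the median of all genes from -0.0039 to -0.038. Depth limits genes such as PNCK, with 21 counts in 6 tumors.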
